A study of Mus musculus with 1528 samples.

Results

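The inflammasome genes described here are *Nlrp3*, *Aim2*, *Pycard*, *Casp1*, *Casp4* and *Gsdmd*, 6 of the 55421 genes of the count table, chosen by name. All 6 were measured in bone marrow–derived macrophages (BMDMs) of 2 mice, and all 6 passed the filter on low counts. When TNF was added to IL4+IL13, *Gsdmd*, which encodes the pore-forming protein gasdermin D, was 1.81-fold higher. *Nlrp3*, the sensor gene, was 2.06-fold higher at a level far below that of the others, and cells with an *Nlrp3* fragment made up 20.7% in place of 9.52%. *Casp1* and *Casp4* were higher by smaller amounts, *Aim2* was close in both treatments and *Pycard* was slightly lower. With the treatments compared across 2 mice each, none of the 6 passed the test after adjustment over all genes, and *Gsdmd* passed it when each mouse was compared with itself.

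Inflammasomes are protein assemblies of the cytosol that form when a sensor detects a danger or a microbial signal. NLRP3 responds to disturbed ion balance and membrane damage, and AIM2 binds double-stranded DNA. Either sensor gathers the adaptor ASC, the product of *Pycard*, which in turn gathers caspase-1. Caspase-1 matures IL1β and IL18 and cleaves gasdermin D, whose freed end forms pores in the plasma membrane. Caspase-11, the product of mouse *Casp4*, binds lipopolysaccharide in the cytosol and also cleaves gasdermin D. In macrophages *Nlrp3* transcription is known to be raised by priming through NF-κB, a pathway that TNF activates.

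The cells were wild-type C57BL/6 BMDMs (C57BL/6J in the study's methods), grown from the bone marrow of male mice in recombinant human CSF1, which favours macrophages, and the age of the mice is not given in the sources used here. In both groups they were stimulated for 24 h with IL4 and IL13 at 10 ng/ml each, cytokines that drive the M2 or tissue-reparative state. The second group also received TNF at 10 ng/ml. Live single cells were sorted into 4 plates of which 2 held cells of mouse 1 and 2 cells of mouse 2. IL4+IL13 filled the upper rows and IL4+IL13+TNF the lower rows of each plate, so treatment and position on the plate cannot be told apart. The comparison asks how TNF alters gene expression in M2 macrophages.

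Of 1524 wells with a known mouse and treatment, 1386 were kept, 690 without and 696 with TNF. Their median depth was 477871 and 464673 fragments, and no 2 wells held identical counts. Summed per mouse and treatment, the 4 sums held 162260282 to 179757666 fragments. The library protocol has no molecular identifiers, so PCR copies are counted, and the binomial intervals printed here leave out every error but that of counting. *Adgre1*, *Csf1r*, *Cd68* and *Lyz2*, which define macrophages, were found in 98.9% to 100% of cells of either treatment. Of 8 macrophage markers, 6 were lower in both mice with TNF, and *Mertk* was found in 29.7% of cells with IL4+IL13 and 19.4% with TNF. Of 5 dendritic cell markers, *Flt3*, *Zbtb46* and *Ccr7* passed the filter on low counts, and their summed level was 7.65 and 10.1 CPM with IL4+IL13. With TNF it was 30.4 and 209 CPM, of which *Ccr7* alone made up 21.4 and 195 CPM. *Zbtb46* was found in 4.25% and 9.52% of cells and *Flt3* in 89.4% and 87.9%. *Flt3* was at 7.21 and 6.68 CPM with IL4+IL13 and at 7.53 and 7.17 CPM with TNF, spread thinly over many cells. *Nlrp1b*, at 8.95 and 10.6 CPM with IL4+IL13, was found in 24.6% of cells. Whether the *Flt3* fragments came from the cells they were counted in was not tested. *Xcr1* and *Siglech*, which define dendritic cell subsets, did not pass the filter on low counts. Of 6 neutrophil markers, *S100a8* and *S100a9* passed that filter, and *Ly6g*, *Mpo*, *Elane* and *Camp* did not. The summed level of *S100a8* and *S100a9* was 0.935 and 2.11 CPM with IL4+IL13 and 1.75 and 5.36 CPM with TNF. The part of these differences in the results on the inflammasome genes was not tested.

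Levels are CPM (counts scaled to a common total) of the summed fragments after TMM scaling, which balances the sums over most genes. Shares are the cells with at least 1 fragment of the gene after each cell was thinned to 339000 fragments, which left 641 cells with IL4+IL13 and 609 with TNF. The thinning left out 49 and 87 kept cells as too shallow. As a background, 16 genes that mark T, B, mast and fibroblast cells were each found in at most 11.6% of cells with IL4+IL13, with a median of 1.01%. *Trac*, a T cell receptor gene, was at 11.6% and 10.2% in the 2 treatments as means of the 2 mice, and the other genes were below 5%. With at least 5 fragments required, none of the 16 genes was found in more than 2.01% of cells. Neutrophil markers were not among them, since *S100a8*, which macrophages can also express, was found in 6.75% of cells with IL4+IL13 and 19.1% with TNF, and with at least 5 fragments in 1.27% and 6.88%. Dendritic cell markers were not among them either, and *Flt3* was found in 89.4% and 87.9% of cells.

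*Nlrp3* (ENSMUSG00000032691, chr11:59541568-59566956 on the plus strand of mm10) was the member with the lowest level. It was measured at 1.64 CPM in mouse 1 and 2.55 CPM in mouse 2 with IL4+IL13, from 298 and 429 fragments. With TNF it was at 3.82 and 4.78 CPM, from 594 and 839 fragments. Both TNF values lay above both IL4+IL13 values. The log2 change was 1.04 ± 0.39 (SE, n = 2 mice per treatment; edgeR quasi-likelihood test, adjusted p = 0.601). With the mouse as a block, which pairs the treatments within each mouse, the edgeR adjusted p was 0.113, so a difference was not shown in either test. Of the 17034 genes tested, 3.25% had a larger log2 change upwards. *Nlrp3* was higher with TNF on all 4 plates, by 0.19 to 1.58 on the log2(CPM + 0.5) scale, the smallest difference being on plate 5 and the largest on plate 2.

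The share of cells with *Nlrp3* varied less than its level. It was 9.34% (95% exact binomial interval 6.43% to 12.99%) in mouse 1 and 9.71% (6.65% to 13.6%) in mouse 2 with IL4+IL13. With TNF it was 20.5% (16.1% to 25.4%) and 20.9% (16.5% to 25.9%). The difference was 11.2 ± 0.058 percentage points (SD, n = 2 mice), and the plates gave differences of 9.76 to 12.7 points. That SD depended on the setting, at 1.59 points without thinning, 1.45 without the cell filter and 0.39 at 100000 fragments. The close match of the mice is thus no measure of precision. With IL4+IL13 the mean share lay below that of *Trac*, so at 1 fragment it cannot be set apart from background. The *Trac* share differed by mouse, at 19.9% and 3.24% with IL4+IL13 and at 18.5% and 1.96% with TNF in mouse 1 and mouse 2. In mouse 1 the interval of *Nlrp3* with TNF held the *Trac* share, so there it cannot be set apart either. In mouse 2 *Nlrp3* lay above *Trac* in both treatments. With at least 5 fragments required, the shares were 3.73% and 9.03%, both above each of the 16 background genes. Within each plate, 3.01% to 5.42% of cells with IL4+IL13 and 6.21% to 12.4% with TNF had at least 5 fragments, and the ranges did not overlap. *Nlrp3* was thus read from a minority of cells. With IL4+IL13, the top 5% of cells by CPM accounted for 85.2% and 91.9% of the total in mouse 1 and mouse 2. With TNF they accounted for 64.8% and 74.3%, and the median cell had none.

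The promoters of *Nlrp3* are shown because NF-κB priming at this gene is the textbook link to TNF. RefSeq (GRCm38.p6) promoters, from 250 bases before to 50 after the start, matched 5 of the 6 members (not *Gsdmd*), and *Nlrp3* had 2 starts. Capitals mark any match on either strand to the NF-κB consensus, to GAAANNGAAA (interferon-stimulated response element) or TTCNNNNGAA (STAT6 type). Among 32851 promoters of the same length, 8.46%, 3.44% and 6.95% held at least 1 match to these motifs in that order.
Nlrp3 start at chr11:59541319-59541618, plus strand: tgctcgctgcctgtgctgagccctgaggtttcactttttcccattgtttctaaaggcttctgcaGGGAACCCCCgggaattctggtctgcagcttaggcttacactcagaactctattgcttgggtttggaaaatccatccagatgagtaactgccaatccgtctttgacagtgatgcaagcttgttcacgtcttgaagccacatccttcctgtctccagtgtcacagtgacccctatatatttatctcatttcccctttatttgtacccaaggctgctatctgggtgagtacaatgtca
Nlrp3 start at chr11:59542436-59542735, plus strand: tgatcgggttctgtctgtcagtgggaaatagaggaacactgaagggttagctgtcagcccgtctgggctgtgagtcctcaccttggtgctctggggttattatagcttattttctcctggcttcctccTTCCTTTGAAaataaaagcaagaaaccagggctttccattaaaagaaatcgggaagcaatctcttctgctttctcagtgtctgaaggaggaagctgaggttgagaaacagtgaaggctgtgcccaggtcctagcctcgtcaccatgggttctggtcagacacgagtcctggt
The upstream start had 1 NF-κB match, at bases -186 to -177 with the first base of the transcript as 0. The downstream start had 1 STAT6-type match, at -122 to -113. A match of letters describes the sequence and does not show binding.

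*Aim2* (ENSMUSG00000037860, chr1:173350879-173466040, plus strand) differed little. It was at 17.04 and 17.52 CPM with IL4+IL13 and at 17.3 and 20.7 CPM with TNF in mouse 1 and mouse 2. The treatments overlapped, and the log2 change was 0.14 ± 0.22 (SE, n = 2; edgeR adjusted p = 0.949). In mouse 1 the direction depended on the scaling. Its 2 plates gave changes of 0.034 and 0.026 with TMM scaling and of -0.057 and -0.065 with plain totals, all on the log2(CPM + 0.5) scale. Cells with *Aim2* made up 35.2% and 32.0% with IL4+IL13 and 38.6% and 40.5% with TNF, a difference of 5.93 ± 3.61 points (SD, n = 2). On plate 2 the share was lower with TNF, at 39.1% against 41.6%. The promoter of *Aim2* held none of the 3 motifs.

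*Pycard* (ENSMUSG00000030793, chr7:127989708-127993867, minus strand) was found in nearly every cell and was the only member lower in both mice. It was at 213 and 198 CPM with IL4+IL13 and at 188 and 185 CPM with TNF. Both TNF values lay below both IL4+IL13 values, but the log2 change of -0.14 ± 0.15 (SE, n = 2) did not pass the test (edgeR adjusted p = 0.917). The level was lower on all 4 plates, by 0.093 to 0.23 on the log2(CPM + 0.5) scale. Cells with *Pycard* made up 96.4% to 99.4% of the cells of each mouse and treatment. Of its exon bases, 12.8% are shared with *Gm45205*, and the counting did not use the strand, so fragments there cannot be told apart. *Pycard* was also among the most even members, its highest 5% of cells holding 12.3% to 17.2% of the summed CPM.

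*Casp1* (ENSMUSG00000025888, chr9:5298508-5307290, plus strand) and *Casp4* (ENSMUSG00000033538, chr9:5308828-5336783, plus strand) are neighbours and related in sequence, and fragments that map to both would have been left out. *Casp1* was at 202 and 166 CPM with IL4+IL13 and at 238 and 215 CPM with TNF. Both TNF values were higher, with a log2 change of 0.30 ± 0.18 (SE, n = 2; edgeR adjusted p = 0.783). Plate 2 went the other way, at 210 CPM with IL4+IL13 and 203 CPM with TNF, while the share of cells with *Casp1* was higher with TNF on all 4 plates. That share was 94.0% and 90.3% with IL4+IL13 and 97.7% and 96.1% with TNF, a difference of 4.75 ± 1.47 points (SD, n = 2).

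*Casp4* was at 36.9 and 47.7 CPM with IL4+IL13 and at 52.5 and 57.8 CPM with TNF. Both TNF values lay above both IL4+IL13 values, with a log2 change of 0.38 ± 0.21 (SE, n = 2; edgeR adjusted p = 0.771). All 4 plates gave a higher level with TNF, but plate 2 had the largest difference, 1.00 on the log2(CPM + 0.5) scale, and the other plates gave 0.098 to 0.34. The share of cells with *Casp4* was 50.0% (44.5% to 55.5%) and 57.6% (51.9% to 63.2%) with IL4+IL13. With TNF it was 65.7% (60.0% to 71.0%) and 66.3% (60.7% to 71.6%), a difference of 12.2 ± 4.91 points (SD, n = 2). Every plate had a higher share with TNF, by 5.90 to 17.8 points. Both the share and the level of *Casp4* were thus higher with TNF on every plate. On plate 3 the level hardly differed with plain totals in place of TMM scaling, by 0.0048 on the log2(CPM + 0.5) scale.
The promoter of *Casp4* is printed because it held the most motif matches among the members, with the NF-κB consensus in capitals.
Casp4 start at chr9:5308599-5308898, plus strand: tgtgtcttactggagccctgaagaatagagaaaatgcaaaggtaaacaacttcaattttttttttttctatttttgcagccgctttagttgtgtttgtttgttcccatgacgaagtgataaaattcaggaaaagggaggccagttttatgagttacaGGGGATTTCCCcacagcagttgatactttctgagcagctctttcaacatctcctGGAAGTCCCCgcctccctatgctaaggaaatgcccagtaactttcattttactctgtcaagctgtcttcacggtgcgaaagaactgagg
Its NF-κB matches lay at -93 to -84, at -92 to -83 (overlapping the first) and at -39 to -30. The second *Casp4* start, 11 bases away, shares these sites, and *Casp1* and *Pycard* held none of the 3 motifs.

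*Gsdmd* (ENSMUSG00000022575, chr15:75862327-75867408, plus strand) gave a difference of similar size on every plate. It was at 113 and 103 CPM with IL4+IL13 and at 200 and 191 CPM with TNF. The treatments stood further apart than the mice within them, and each of the 4 plates gave a change of 0.74 to 0.95 on the log2(CPM + 0.5) scale. The log2 change was 0.85 ± 0.16 (SE, n = 2) and did not pass the edgeR test after adjustment (adjusted p = 0.269; unadjusted p = 0.00313). With the mouse as a block, which pairs the treatments within each mouse, the edgeR adjusted p was 0.0210. Larger changes upwards were measured in 4.63% of the genes tested.

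The share of cells with *Gsdmd* was 90.1% (86.3% to 93.1%) and 81.2% (76.4% to 85.4%) with IL4+IL13. It was 94.4% (91.2% to 96.7%) and 95.1% (92.0% to 97.2%) with TNF. The mice differed with IL4+IL13 and were close with TNF, which gave a difference of 9.10 ± 6.75 points (SD, n = 2). With at least 5 fragments required, the shares were 72.5% and 88.8%. The median cell held 95.9 and 48.3 CPM with IL4+IL13 and 144 and 159 CPM with TNF, without scaling. The lower quartile was 27.1 and 2.99 CPM with IL4+IL13 and 69.3 and 58.3 CPM with TNF, so the cells with little *Gsdmd* also held more with TNF.

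Both TNF values lay above both IL4+IL13 values for 4 of the 6 members and below them for *Pycard*. Of all genes tested, 18.6% stood apart upwards and 17.9% downwards. For 5 members the level was higher in both mice, as it was for 34.3% of all genes tested, and *Pycard* was lower in both, as were 32.4%. In the unblocked test 0 of the 6 passed (0.00587% of all genes did, 1 of 17034, with 8.1% at an unadjusted p under 0.05). *Nlrp3* and *Gsdmd* were the members under that unadjusted limit. With the mouse as a block, 1 of the 6 passed, as a higher gene, when 1.94% of all genes passed as higher and 1.88% as lower. The median log2 change of the 6 was 0.34, and that of all genes tested was 0.0038. The 2 treatments have 2 mice each, and the smallest two-sided p an exact permutation test of 4 values can give is 0.333, so no such test is given for shares.

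**Figure D1:**
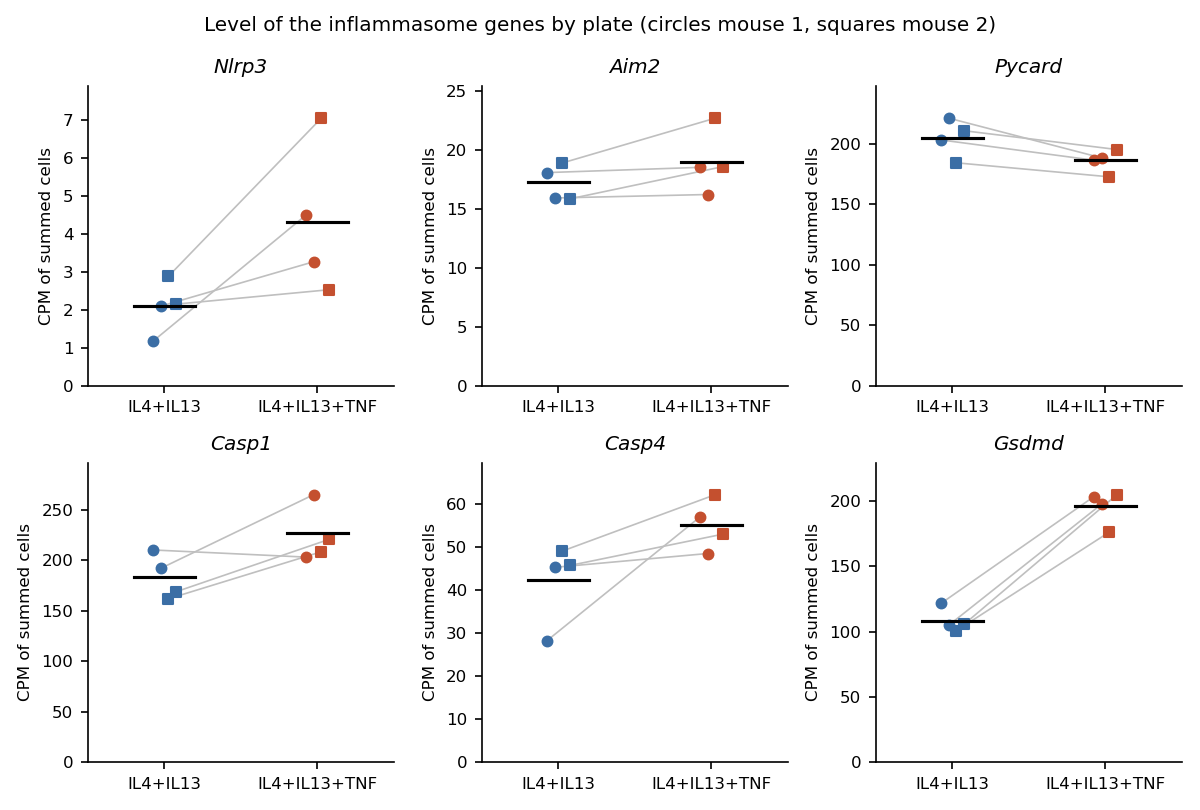
Each panel plots the CPM of summed cells (y axis, TMM-scaled, from 0) for IL4+IL13 and IL4+IL13+TNF, with 1 point per plate, a grey line joining the treatments of 1 plate, circles for mouse 1, squares for mouse 2 and a black bar at the mean of the 2 mice. The 4 *Gsdmd* lines are steep and near parallel, *Nlrp3* points spread from 2.53 to 7.04 CPM with TNF, and all *Pycard* lines slope down.

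**Figure D2:**
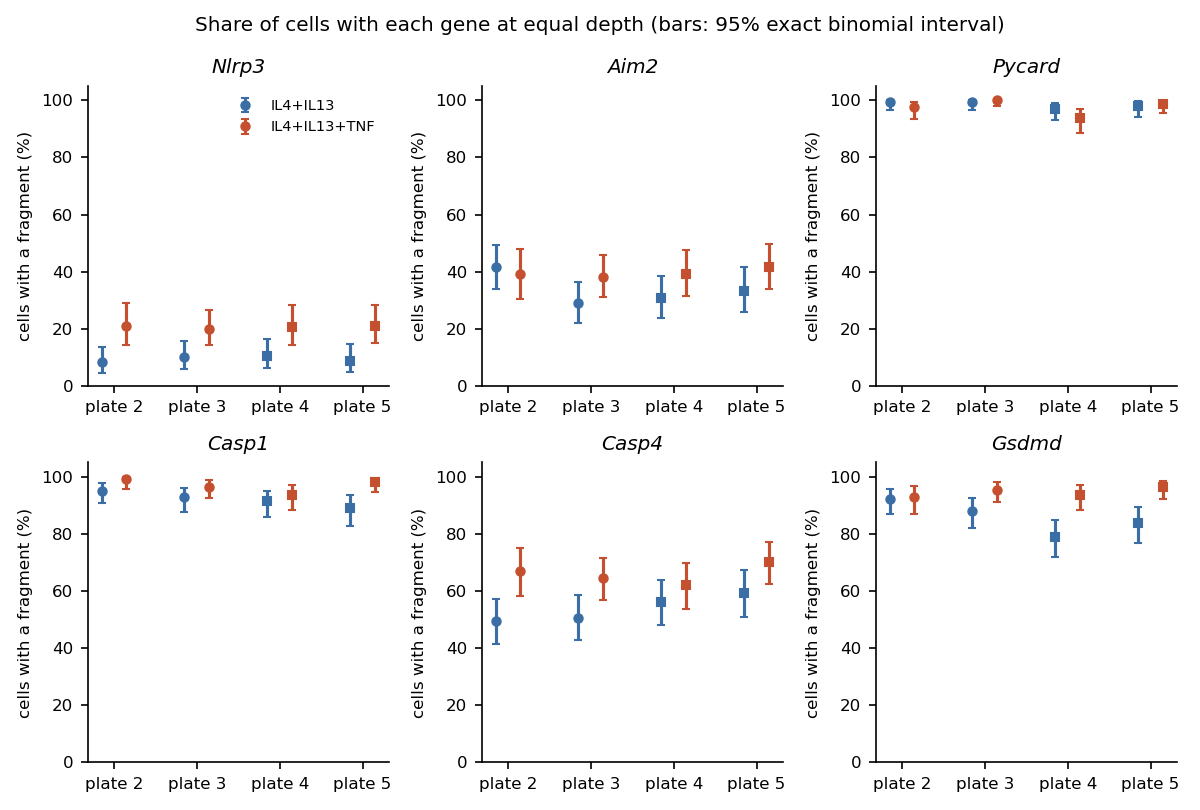
Each panel plots the percentage of cells with at least 1 fragment at equal depth (y axis) for each plate (x axis), blue for IL4+IL13 and red for IL4+IL13+TNF, circles for mouse 1 and squares for mouse 2, with 95% exact binomial intervals as bars. *Nlrp3* shares lie at 8.43% to 10.5% in blue and at most 21.1% in red, with red above blue on all plates, while *Pycard* shares lie near the top in both.

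**Figure D3:**
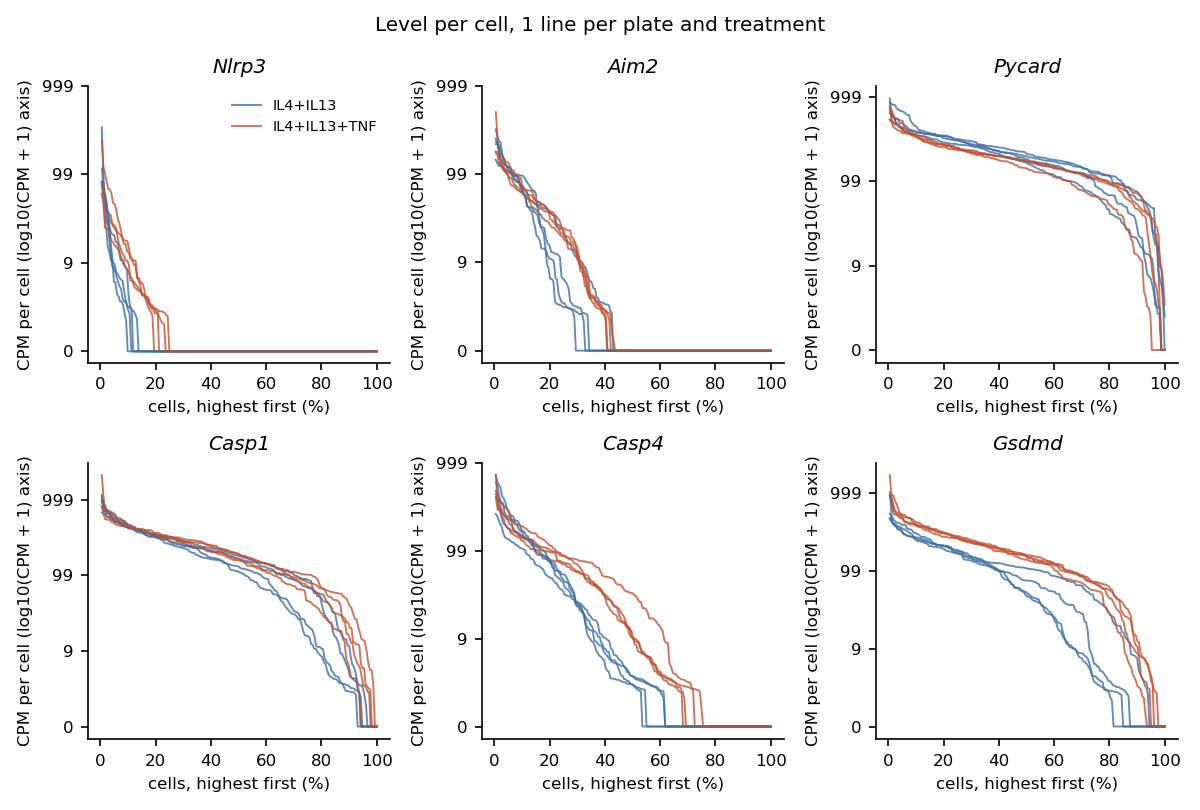
The kept cells of each plate and treatment are ordered from the highest to the lowest CPM of the gene (x axis, percent of cells), and the y axis is log10(CPM + 1) with unscaled CPM as tick labels. *Nlrp3* lines reach 0 within the first 25% of cells, *Gsdmd* lines with TNF (red) lie above those with IL4+IL13 (blue) over most of the range, and *Pycard* lines of both treatments run together over most cells.

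Per kilobase of exons, the members fell into a high and a low set. The length used is that of all annotated exons of a gene merged, so a gene whose transcript is shorter is given too low a level. For *Pycard* it is 3800 bases of a gene spanning chr7:127989708-127993867, so its place beside *Casp1* and *Gsdmd* is uncertain. With IL4+IL13, *Casp1* was at 64.3 and 52.8 CPM per kilobase in mouse 1 and mouse 2, *Pycard* at 56.0 and 52.0, and *Gsdmd* at 47.7 and 43.4. The levels per kilobase of *Casp1* and *Pycard* overlapped, and those of *Gsdmd* lay below both. *Casp4* followed at 9.95 and 12.9, *Aim2* at 4.87 and 5.01, and *Nlrp3* at 0.404 and 0.627 CPM per kilobase, with no overlap between neighbours. With TNF the order at the top was different, with *Gsdmd* first at 84.3 and 80.4, *Casp1* next at 75.8 and 68.6, and *Pycard* after it at 49.5 and 48.6 CPM per kilobase. The adaptor, caspase-1 and gasdermin D were therefore each measured at many times the level of either sensor in these cells.

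More members were found per cell with TNF, and so were more genes of any kind. The median kept cell held 7708.5 genes with IL4+IL13 and 8025.5 with TNF before thinning, and the part of this in the members' counts was not tested. A cell held on average 3.73 of the 6 with IL4+IL13 (3.65 to 3.86 across the 4 plates) and 4.15 with TNF (4.03 to 4.26), and the plate ranges did not overlap. *Nlrp3*, *Pycard* and *Casp1* were found together in 9.05% of cells with IL4+IL13 (7.83% to 9.88%) and in 20.2% with TNF (18.6% to 21.1%), close to the shares of *Nlrp3* alone. *Casp4* with *Gsdmd* was found in 46.7% (43.4% to 53.1%) and 62.4% (56.6% to 67.7%) of cells. All 6 members were found in 2.02% and 5.49% of cells.

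Among cells of 1 plate and treatment, the members showed little correlation with each other. Over the 15 pairs, the mean Spearman's rho across the 8 sets of 128 to 175 cells ranged from -0.032 (*Pycard* and *Casp1*) to 0.053 (*Casp1* and *Gsdmd*), with a median of 0.015. No pair was above 0 in all 8 sets. *Casp1* and *Casp4*, the neighbours on chromosome 9, had a mean of 0.049 and were above 0 in 7 of 8 sets. By treatment, the means with IL4+IL13 ranged from -0.030 (*Casp4* and *Gsdmd*) to 0.099 (*Nlrp3* and *Aim2*, at -0.048 with TNF). With TNF they ranged from -0.080 (*Pycard* and *Casp1*) to 0.087 (*Casp1* and *Casp4*, at 0.011 with IL4+IL13). Joint detection gave the same picture. *Casp4* and *Gsdmd* were found together in 54.5% of cells, when the product of their shares is 54.2%, and *Nlrp3* and *Casp1* in 14.7%, when the product is 14.4%. Cells of a set share plate, mouse and depth, and low counts weaken any correlation, so these values describe the data and carry no test.

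**Figure D4:**
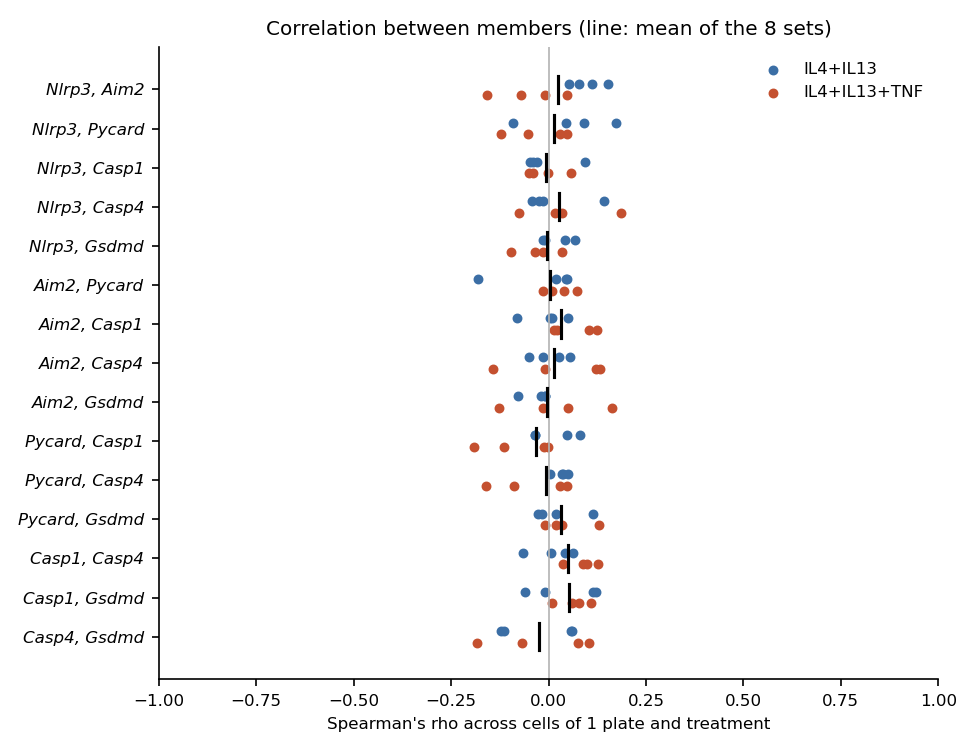
Each row is 1 pair of members, each point is Spearman's rho (x axis, -1 to 1) across the thinned cells of 1 plate and treatment, blue for IL4+IL13 and red for IL4+IL13+TNF, and the black line is the mean of the 8 sets. All means lie between -0.032 and 0.053, and the points scatter on both sides of 0.

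The genes whose cell-to-cell pattern was most like that of each member were read among 9696 genes found in at least 25% of thinned cells of both treatments, as the mean rho over the same 8 sets. For *Nlrp3* they were *Ccl2* (0.177), which encodes a monocyte chemokine, and the cell division genes *Kif22* (0.156) and *Ccna2* (0.152). For *Gsdmd* they were *Cd74* (0.190), the invariant chain of MHC class II, *Cd52* (0.184) and the integrin gene *Itgb2* (0.178). For *Pycard* they were *H2-DMa* (0.204), *Atp5g3* (0.195) and *Mcub* (0.187). All these values are small. *Aim2* was closest to *Kif20b* (0.128), *Ifi203* (0.117), a relative of *Aim2* in the same gene family, and *Cnot9* (0.115). *Casp1* was closest to *Pusl1* (0.134), *H2-D1* (0.132) and *Fbxw4* (0.132), and *Casp4* to *Nupr1* (0.151), *Evi5* (0.128) and the interferon-induced *Ifit1* (0.123). The summed NF-κB targets gave a mean rho of 0.121 with *Nlrp3* (above 0 in 7 of 8 sets) and of 0.035 to 0.051 with the other members. The summed cell cycle genes gave 0.105 with *Nlrp3* (above 0 in 6 of 8 sets) and 0.095 with *Pycard*, and the summed interferon response genes 0.089 with *Casp1* and 0.085 with *Casp4*.

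A list of 30 further genes of the pathway set the members in context. Of these, 25 passed the filter, 10 were higher in both mice with TNF, 7 lower in both and 8 opposite, and their median log2 change was 0.075. In the unblocked edgeR test 0 passed, and 7 were under an unadjusted p of 0.05. With the mouse as a block 8 passed, 6 higher and 2 lower, when 3.82% of all genes passed in either direction. From here on, "rose" and "fell" mean an adjusted p under 0.05 in edgeR with the mouse as a block, which the same genes did not reach without it.

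Among genes that act on the cytokines or the membrane, *Il1rn*, the IL1 receptor antagonist, rose from 14.3 and 7.93 CPM to 40.2 and 24.5 CPM (block adjusted p = 0.0145). *Il18bp*, which binds and neutralizes IL18, rose from 8.004 and 11.92 to 18.6 and 29.6 CPM (block adjusted p = 0.0272). The cytokine genes *Il18* and *Il1b* did not pass. *Il18* was at 18.8 and 13.03 CPM with IL4+IL13 and at 9.59 and 13.6 CPM with TNF, opposite in the 2 mice. *Il1b* was at 0.0110 and 3.08 CPM with IL4+IL13 and at 0.0193 and 3.37 CPM with TNF, and it was found in 53.7% and 39.9% of the cells of mouse 2 in the 2 treatments and in 0.301% of those of mouse 1 with IL4+IL13. No cell of mouse 2 exceeded 20.1 CPM of *Il1b* with IL4+IL13 or 105.3 CPM with TNF, so its fragments were spread thinly over many cells of 1 mouse, and whether they came from those cells was not tested. *Ninj1*, which drives plasma membrane rupture downstream of gasdermin D, rose from 238 and 227 to 433 and 439 CPM (block adjusted p = 0.0148), a log2 change of 0.91 beside 0.85 for *Gsdmd*. *Gsdme*, another gasdermin, fell from 65.1 and 121 to 30.4 and 58.0 CPM (block adjusted p = 0.0156).

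Of the regulators, the guanylate-binding protein genes *Gbp2* and *Gbp3*, whose products help expose lipopolysaccharide to caspase-11, rose by 2.01 and 0.85 on the log2 scale (block adjusted p = 0.00743 and 0.0451). *Txnip*, whose product binds NLRP3, fell by 0.73 (block adjusted p = 0.0415). *Nek7*, a kinase that NLRP3 needs, had a log2 change of -0.38, *Panx1* of 0.15, *Brcc3* of 0.13, *Serpinb1a* of -0.63, *Gm12250* of 0.08, *Zbp1* of 0.25 and *P2rx7*, the ATP-gated channel, of 0.06, and none of these passed. Among the other sensors, the log2 change was -1.04 for *Nlrp1b*, 0.97 for *Nlrc4*, -0.19 for *Nlrp1a*, 0.01 for *Naip2*, -0.62 for *Naip5* and -0.48 for *Naip6*, and none passed. The *Naip* and the *Nlrp1* genes are families of related copies, and fragments that map to more than 1 copy were not counted, so their levels are uncertain. *Casp8*, an initiator caspase that can also act in this pathway, had a log2 change of -0.08. Found in under 10% of cells were 7 of the 30 genes, of which *Mefv*, the pyrin gene, is named because it passed with the block, a choice made after its values were seen. It was at 0.0220 and 0.196 CPM with IL4+IL13 and at 2.08 and 5.42 CPM with TNF, and 5% of cells held 100% and 94.7% of the latter.

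**Figure D5:**
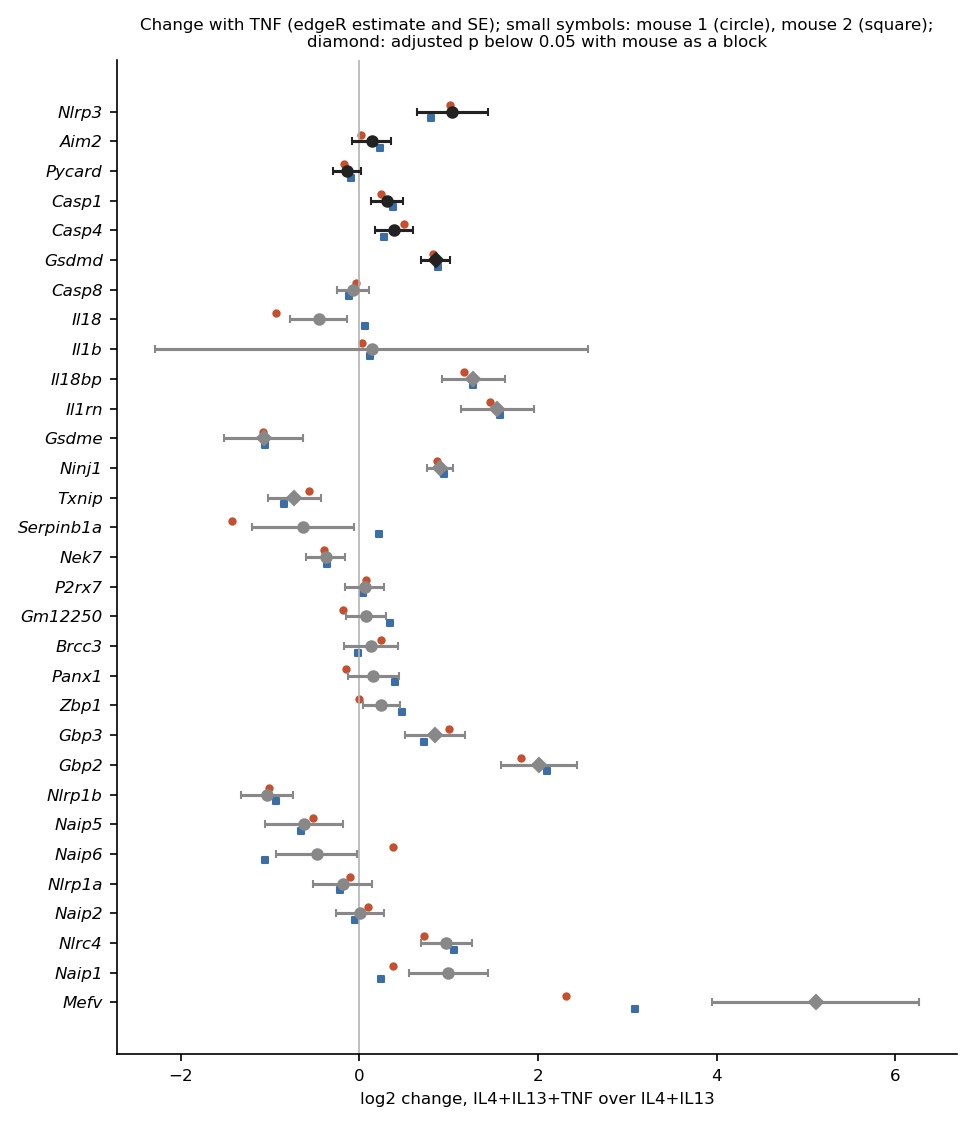
The x axis is the log2 change with TNF, large symbols with bars are the edgeR estimate and its SE (black for the 6 members, grey for the other 25 pathway genes tested), diamonds mark an adjusted p under 0.05 with the mouse as a block, and small symbols are the log2 ratio of CPM + 0.5 in mouse 1 (circle) and mouse 2 (square), which is closer to 0 for low genes. *Gsdmd* at 0.85 and *Ninj1* at 0.91 have short bars and agreeing mice, and *Il1b* has the widest bar.

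NF-κB targets, interferon response genes and cell cycle genes were read beside the members. Of 12 NF-κB targets, 12 were higher in both mice and 10 rose with the mouse as a block, with a median log2 change of 2.12 and the largest values in *Saa3* (6.84), *Ccl5* (4.47) and *Icam1* (2.45). Of 12 interferon response genes, 3 were higher in both mice, 3 lower and 6 opposite, with a median log2 change of -0.15, and 0 passed with or without the block. Of 10 cell cycle genes, 8 were lower in both mice and 6 fell with the block, among them *Mki67* (-1.29), *Birc5* (-1.15) and *Ccna2* (-1.14). The members' changes of -0.14 to 1.04 lay below the median of the NF-κB targets. That list was chosen with earlier results of these data known, so its median is not an independent measure.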

How the data were processed

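Single BMDMs were sequenced with Smart-seq2, and the authors deposited counts of uniquely mapped fragments per gene and well, not normalized (gsnap 2019-06-10 on mm10, featureCounts 1.6.3, Ensembl 98, strand not used). Labels gave mouse, plate and treatment of 1524 wells. The labels give 4 further samples the treatment IL4+IL13 and the name B_M2 but no mouse number, and these were left out of every comparison. 8 columns matching no label were not used. Spike-ins (92 rows) were left out. Wells were removed where the log total or log number of genes was over 3 median absolute deviations under the plate median, or the mitochondrial or spike-in share as far over it, with no upper limit on totals, and 1386 were kept (200235 to 6122892 fragments). Cells had been sorted singly, and no doublet caller was run.

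For each mouse and treatment the fragments were added up, and the 4 sums were tested in edgeR 4.0.16 (quasi-likelihood, TMM, treatment only, Benjamini-Hochberg over 17034 genes found in at least 5% of cells) under R 4.3.3. The mouse numbers pair the sums, since each mouse gave cells to both treatments, and deviations of the same mouse correlated with r = 0.568. Alternatives were the mouse block, DESeq2 1.42.0, library size scaling, limma 3.58.1 on log2(mean CPM + 1), other filters and leaving out each sum. The unblocked edgeR test was also run on simulated counts drawn without a mouse effect, and the block, DESeq2 and limma fits were not. Shares used cells thinned to 339000 fragments, correlations Spearman's rho (numpy 2.4.6, scipy 1.17.1). The members and lists were chosen with earlier results of these data known. Named were the members, pathway genes in at least 10% of cells, 3 partners per member and up to 3 called genes of each further list. The labels do not say whether the cultures of 1 mouse were separate. The p-values of the unblocked test thus measure the spread between 2 mice, each on its own plates. Those with the mouse as a block measure how far the difference between treatments varied between the 2 mice.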

Additional observations from a re-analysis of the deposited data

Results flagged for a closer look

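The 4 samples that the labels name B_M2, with the treatment IL4+IL13 and no mouse number, were left out of the comparisons, and a count column was matched to 3 of them. In these samples 4 member values lay above every plate and treatment value of the same gene, in unscaled CPM. *Nlrp3* was at 39.4 CPM on plate 3 (11 fragments) and at 19.7 CPM on plate 4 (7 fragments). *Aim2* was at 75.1 CPM on plate 3 (21 fragments) and *Casp4* at 67.6 CPM on plate 4 (24 fragments). Each value comes from 1 sample and few fragments, and single kept cells with IL4+IL13 reached 340 CPM for *Nlrp3*, 322 CPM for *Aim2* and 729 CPM for *Casp4*. The samples on plates 3 and 4 held 10802 and 11121 genes, when the median kept cell with IL4+IL13 held 7708.5. Whether each holds a single cell was not tested.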

How the results depend on the processing

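Direction was kept by all 6 members in each of the 11 alternatives. *Gsdmd* passed in 2 of them, at a log2 change of 0.85 (adjusted p = 0.0210) with the mouse as a block and of 0.84 (adjusted p = 0.00956) in DESeq2, and its adjusted p ranged up to 0.809. The other members passed in none. The replicate block raised the genes changed from 1 to 651 and the pathway genes from 0 to 8, and DESeq2 gave 598 and 6. Leaving out 1 sum gave 4 to 30 genes, where the lone sum was assumed to have the spread of the treatment with 2. The cause was not tested. The block changed no other call among the members. In edgeR with the block, the adjusted p was 0.113 for *Nlrp3*, 0.169 for *Casp4*, 0.173 for *Casp1*, 0.500 for *Pycard* and 0.717 for *Aim2*. Without 1 sum, the log2 change ranged from 0.75 to 1.39 for *Nlrp3*, from 0.17 to 0.45 for *Casp1* and from 0.20 to 0.58 for *Casp4* (the ends without 1 of the IL4+IL13 sums), and from 0.00027 to 0.26 for *Aim2* (without 1 of the TNF sums). With the mean CPM per cell in limma it was 0.53 for *Nlrp3*, 0.15 for *Casp1* and -0.22 for *Pycard*. The difference in the share of cells was 10.6 points without thinning, 5.30 with at least 5 fragments and 6.26 at 100000 fragments for *Nlrp3*. For *Casp1* it was 2.67, 9.93 and 7.46 points in that order, and for *Gsdmd* 16.4 points with at least 5 fragments. With 2 mice and few *Nlrp3* fragments, small changes were not detectable.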

Other observations

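In the sample named B_M2 on plate 3, labelled IL4+IL13 with no mouse number, from 279461 fragments, *Pycard* was at 165 CPM, *Casp1* at 204, *Casp4* at 50.1 and *Gsdmd* at 71.6 CPM. The one on plate 4, from 354874 fragments, held *Pycard* at 78.9, *Casp1* at 180 and *Gsdmd* at 39.5 CPM and no *Aim2*. The one on plate 5, from 87198 fragments, held 3 or fewer fragments of each member. No group mean or test was made of them.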
